A study of Mus musculus with 47 samples.

Results

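Leucine is broken down along its own branch of the branched-chain amino acid (BCAA) pathway, and the genes described here are 4 genes for enzymes of that branch, Ivd, Mccc1, Mccc2 and Auh, together with Oxct1, which uses the acetoacetate that the branch releases. The 5 genes were chosen by name, and all 5 were found by symbol and Ensembl identifier in both deposited count tables, which list 55416 genes each. The brains sequenced were those of 3xTg mice of both sexes, a model of Alzheimer's disease. The mice ate a Control diet, or a diet restricted in isoleucine (IleR), leucine (LeuR) or valine (ValR), from 6 months of age for 9 months. The comparisons ask how restricting each BCAA changed gene expression in the brain of each sex. All groups, Control included, carried the same transgenes: mutant human APP and tau, whose expression in this line is driven by a Thy1 promoter active in neurons, and mutant PS1. No library from a mouse without these transgenes was analysed here.

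Of 14 male libraries, 4 came from Control, 4 from ValR and 3 each from IleR and LeuR. Of 23 female libraries, 5 came from IleR and 6 from each of the other diets. The labels list 47 libraries, and the other 10, all male, were not analysed here. The study's methods say that clear outliers were taken out after a principal component analysis, and whether these 10 were among them is not known. Libraries are named below by their diet and their number in the labels. Summed gene counts ran from 12682687 to 25722333 per male library and from 10672599 to 21370973 per female library, and every member had between 177 and 5554 counts in every library, so none was limited by low counts.

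Breakdown begins with a transaminase and the branched-chain ketoacid dehydrogenase, which all 3 BCAAs share, and leucine then goes its own way in the mitochondrion. Isovaleryl-CoA dehydrogenase (Ivd) oxidizes isovaleryl-CoA and hands the electrons to the electron transfer flavoprotein. Methylcrotonyl-CoA carboxylase, a biotin enzyme, adds a carboxyl group; Mccc1 encodes its biotin-bearing alpha subunit and Mccc2 its beta subunit. The hydratase AUH, which also binds AU-rich RNA, then makes HMG-CoA, from which acetyl-CoA and acetoacetate are formed. Oxct1 encodes succinyl-CoA:3-ketoacid CoA transferase, the step that lets brain and other tissues outside the liver burn ketone bodies.

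The tissue label was checked against marker genes. A protocol field names liver, but of 7 liver genes only 5 in males and 3 in females had enough counts to be tested. The tested ones summed to at most 4.08 CPM in any male library and 2.18 CPM in any female library, so the labelled tissue, brain, was kept. CPM is a gene's count per megacount of its TMM-scaled library, so that libraries of unequal depth can be compared. Markers of brain regions differed between libraries. The summed level of 9 cerebellar genes was 40.2 to 90.1 CPM in male Control libraries and 258 to 4858 CPM in the male restricted libraries, and all 9 were higher in each restricted diet. Conversely, 10 forebrain genes summed to 362 to 1328 CPM in male Control libraries and 126 to 211 CPM in the others. A hindbrain score was therefore computed for each library: the mean log2 CPM of 9 cerebellar and of 9 brainstem and spinal cord genes, averaged, minus that of the 10 forebrain genes. It lay between -7.22 and -4.74 in male Control, 2.10 and 4.10 in IleR, -3.22 and 3.98 in LeuR and 4.14 and 5.34 in ValR. No restricted male group overlapped Control (exact permutation test, two-sided, p = 0.0286 for each diet, adjusted p = 0.0571 over 6 comparisons). This p is the smallest that these group sizes allow. The score includes the cerebellar and forebrain genes already seen to separate these groups, so the test adds no separate evidence. In females the groups overlapped, with scores from -7.22 to 4.36 and adjusted p = 0.935 for each diet. Diet and brain region cannot be told apart in these males, and the score is given below beside the results. Cell type markers moved too. In males 6 neuron genes summed to 4426 to 6331 CPM in Control and 3593 to 4418 CPM in the restricted libraries, with 1, 1 and 2 genes lower on IleR, LeuR and ValR. The 6 microglia genes summed to 315 to 357 CPM in Control and 204 to 366 CPM in the restricted libraries, with 2, 0 and 4 genes lower. Of 7 astrocyte genes 1, 0 and 2 were higher and 1 was lower on each diet (3392 to 4838 CPM in Control, 2527 to 4118 CPM in the others). No gene of the oligodendrocyte, endothelium, choroid plexus or blood lists was called, but their sums varied widely. Oligodendrocyte genes summed to 4561 to 9564 CPM in Control and 6433 to 18029 CPM in the others. The 5 blood genes, globins for the most part, summed to 581 to 4118 CPM in Control, 1440 to 2053 CPM on IleR, 2525 to 19630 CPM on LeuR and 1131 to 5606 CPM on ValR, and choroid plexus genes ran from 14.9 to 4811 CPM over the male libraries. The part of these cell type markers in the results was not tested. In bulk tissue, fewer cells of a type and less RNA per cell cannot be told apart either.

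Compared per length of the principal transcript (RPKM), Oxct1 had the highest level of the 5 genes and Mccc2 the lowest. The median Oxct1 level was 63.8 RPKM in males (57.1 to 78.8, n = 14) and 71.5 RPKM in females (62.2 to 80.3, n = 23). The median Auh level was 48.8 RPKM in males and 41.8 RPKM in females. Ivd followed with medians of 27.8 and 23.9 RPKM, Mccc1 with 16.8 and 14.1, and Mccc2 with 9.55 and 8.41. The order Oxct1, Auh, Ivd, Mccc1, Mccc2 held between neighbours in all 37 libraries, apart from Ivd and Mccc1, whose order held in 36. The closest pair was Oxct1 and Auh, whose log2 ratio was 0.65 at the median and 0.059 in the closest library. Oxct1 also ranked first with lengths taken over all annotated exons, but the places below it depend on the length used. Mccc1, whose annotated exons cover 10952 bases against 2455 in its principal transcript, then fell below Mccc2 in all 37 libraries. Auh, with 9580 bases against 1320, fell below Ivd in all 37 libraries and below Mccc2 in 27.

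The genes lie on 4 chromosomes of build GRCm38, and all are protein coding. Ivd is at chr2:118861954-118882909 on the plus strand, Mccc1 at chr3:35959312-36000678 on the minus strand, Mccc2 at chr13:99948530-100015639 and Auh at chr13:52835119-52929681, both on the minus strand, and Oxct1 at chr15:4026383-4155344 on the plus strand. Mccc1 shares exonic bases with 3 annotated genes on the opposite strand (Gm15952, Mccc1os and B230207O21Rik), and Oxct1 shares 467 exonic bases with BC037032, also on the opposite strand. The setting used for strand in the counting is not given in the sources used here, so reads of these partners could not be told apart from those of Mccc1 and Oxct1.

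**Figure D1:**
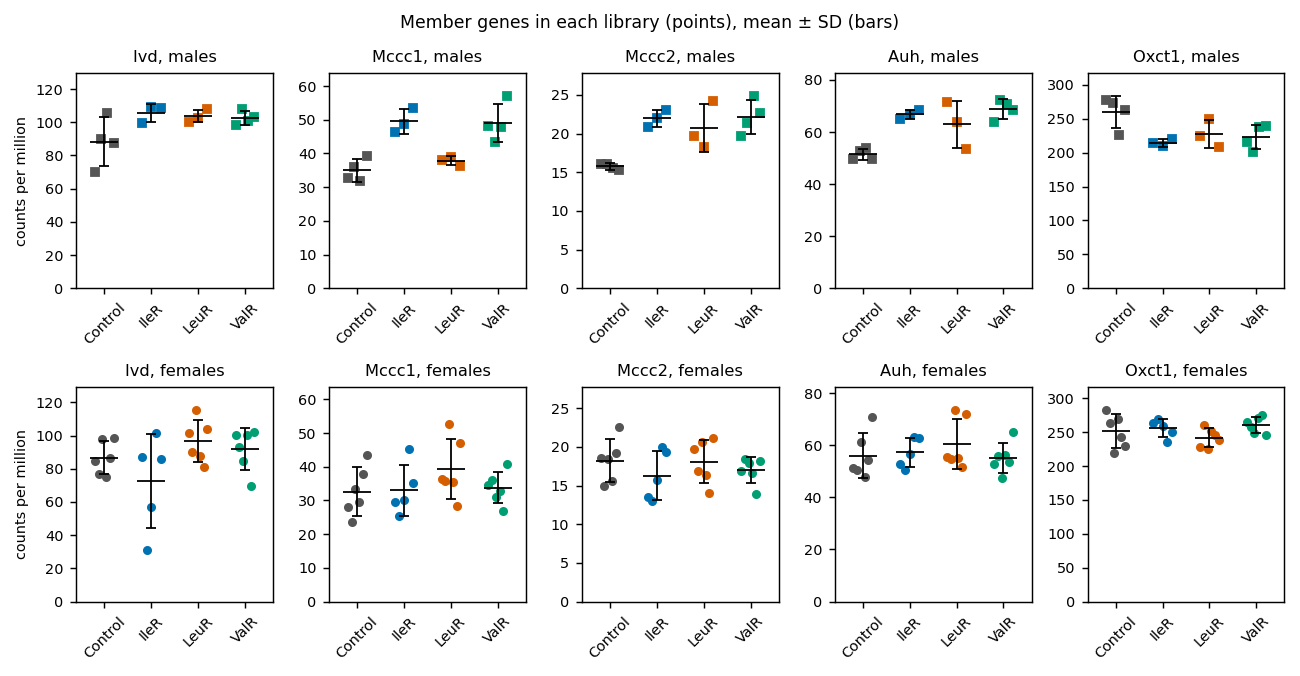
CPM (linear axis from 0) of the 5 genes in each of 14 male (top) and 23 female (bottom) libraries, by diet, with mean and SD as bars. Among males Mccc1, Mccc2 and Auh in IleR and ValR lie above all 4 Control libraries, and Mccc1 in LeuR stays between 36.3 and 38.9 CPM, whereas the female groups overlap for each gene.

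In males, Mccc1, Mccc2 and Auh rose on IleR and ValR, and of the 5 genes Mccc2 alone passed the test on LeuR. Counted by diet, 3 of 5 members passed the test on IleR, 1 of 5 on LeuR and 3 of 5 on ValR, all of them higher than Control (edgeR quasi-likelihood test, Benjamini-Hochberg adjusted p under 0.05). Over all 22197 genes tested, 15.3%, 10.1% and 23.5% were called on IleR, LeuR and ValR, with 6.63%, 3.81% and 11.1% called higher and 8.68%, 6.33% and 12.4% called lower. These shares rest on 3398, 2249 and 5212 genes, and with 1 library left out these counts ranged from 1838 (without IleR 17) to 4357 (without Control 4) on IleR, from 543 (without LeuR 19) to 3952 (without Control 4) on LeuR and from 3843 to 5990 on ValR. With the LeuR and Control libraries alone in the fit, edgeR called 0 genes on LeuR, with 4607 at an unadjusted p under 0.05. The median log2 fold change of the members was 0.38, 0.23 and 0.42, against 0.043, 0.053 and 0.032 over all genes. The 3 comparisons share the same 4 Control libraries. With the hindbrain score in the fit, which itself separates Control from the restricted males, 0 members were called on any diet, and 3, 15 and 0 of all genes (1717, 1920 and 1778 at an unadjusted p under 0.05). The folds did not all shrink in that fit. The log2 fold change of Mccc2 was 0.84, 0.66 and 0.91 on IleR, LeuR and ValR (adjusted p = 0.614, 0.367 and 0.609) and that of Mccc1 0.47 on IleR and 0.45 on ValR (adjusted p = 0.676 and 0.689), whereas Auh turned to -0.090, -0.064 and -0.12.

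Ivd, the first dedicated step, was measured at 69.7, 90.1, 106 and 87.4 CPM in the male Control libraries. It was 99.3, 109 and 108 CPM on IleR, 100.4, 103 and 108 CPM on LeuR, and 98.5, 108, 101 and 103 CPM on ValR. Control 4, the highest Control library, lay inside the range of each restricted group, while the other 3 Control libraries lay below all restricted libraries. The log2 fold change was 0.26 (SE 0.11, adjusted p = 0.131) on IleR, 0.23 (SE 0.11, adjusted p = 0.194) on LeuR and 0.22 (SE 0.10, adjusted p = 0.149) on ValR. Without Control 4, Ivd passed the test on all 3 diets, with log2 fold changes of 0.36, 0.33 and 0.31 and adjusted p = 0.0211, 0.0340 and 0.0240. Without Control 1, the lowest Control library, they were 0.16, 0.14 and 0.12, with adjusted p = 0.283, 0.415 and 0.368.

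Mccc1, the biotin-bearing subunit, stood at 32.8, 36.1, 31.9 and 39.3 CPM in male Control. IleR libraries had 46.3, 48.7 and 53.5 CPM and ValR libraries 48.0, 43.3, 47.9 and 57.0 CPM, all above the highest Control library. LeuR libraries had 38.2, 38.9 and 36.3 CPM, inside the Control range. The increase was 1.41-fold on IleR (log2 0.50, SE 0.10, adjusted p = 0.00632) and 1.40-fold on ValR (log2 0.49, SE 0.097, adjusted p = 0.00289). On LeuR the log2 fold change was 0.11 (95% interval -0.12 to 0.34, adjusted p = 0.539).

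Mccc2, the partner subunit, was the least variable member in male Control, at 16.1, 16.1, 15.6 and 15.3 CPM. It reached 20.9, 22.0 and 23.1 CPM on IleR, 19.7, 18.3 and 24.3 CPM on LeuR, and 19.6, 21.4, 24.8 and 22.7 CPM on ValR. Each restricted library was above each Control library. Mccc2 rose 1.39-fold on IleR (log2 0.48, SE 0.11, adjusted p = 0.0117), 1.32-fold on LeuR (log2 0.40, SE 0.11, adjusted p = 0.0405) and 1.41-fold on ValR (log2 0.49, SE 0.11, adjusted p = 0.00448). The IleR call was lost without IleR 17 (adjusted p = 0.0518). The LeuR result is near the threshold, and leaving out any of 6 single libraries ended it: Control 1, 3 or 5, IleR 14, LeuR 19 or LeuR 21 (adjusted p between 0.0616 and 0.0901). LeuR 21 held the highest Mccc2 level of the group and also had the lowest hindbrain score, -3.22, of the restricted males.

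Auh, the hydratase that follows the carboxylase, measured 49.6, 52.8, 53.8 and 49.6 CPM in male Control. The values were 64.9, 66.9 and 68.6 CPM on IleR, 71.4, 64.0 and 53.6 CPM on LeuR, and 63.7, 72.3, 70.8 and 68.3 CPM on ValR. The IleR and ValR libraries were all above Control, whereas LeuR 21, at 53.6 CPM, lay within the Control range. Auh rose 1.30-fold on IleR (log2 0.38, SE 0.092, adjusted p = 0.0147) and 1.34-fold on ValR (log2 0.42, SE 0.086, adjusted p = 0.00340). On LeuR the log2 fold change was 0.29 (SE 0.092, adjusted p = 0.0609), which passed with DESeq2 (0.29, adjusted p = 0.0276) and with edgeR's filterByExpr filter (0.30, adjusted p = 0.0428). Without LeuR 21 it was 0.42 with adjusted p = 0.00703, without Control 4 it was 0.32 with adjusted p = 0.0468, and without LeuR 19 it was 0.19 with adjusted p = 0.276. The IleR call was lost without IleR 14 or IleR 17 (adjusted p = 0.0535 and 0.0778).

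Oxct1, which acts on acetoacetate downstream of the branch, had the opposite sign to the other members in each male comparison. Control libraries held 278, 274, 225 and 264 CPM. IleR libraries held 214, 209 and 219.7 CPM, LeuR libraries 225, 249.9 and 208 CPM, and ValR libraries 216, 201, 238 and 239 CPM. Only the IleR group lay wholly below Control. The log2 fold change was -0.28 (SE 0.10, adjusted p = 0.0759) on IleR, -0.19 (SE 0.099, adjusted p = 0.233) on LeuR and -0.22 (SE 0.092, adjusted p = 0.104) on ValR, so no difference passed the test. DESeq2 called the IleR and ValR differences (adjusted p = 0.0157 and 0.0407), as did the main test without Control 4, the lowest Control library (adjusted p = 0.0228 and 0.0331). With 1 library left out the log2 fold change was weakest at -0.25 on IleR (without Control 1, adjusted p = 0.175), -0.11 on LeuR (without LeuR 21, adjusted p = 0.503) and -0.17 on ValR (without ValR 9, adjusted p = 0.224).

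Groups that did not overlap were counted for comparison with all genes. On IleR, 3 members lay wholly above Control and 1 wholly below, where 14.8% and 14.5% of all genes did so. On LeuR 1 member lay wholly above Control (8.21% of all genes), and on ValR 3 members did (12.7% of all genes).

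**Figure D2:**
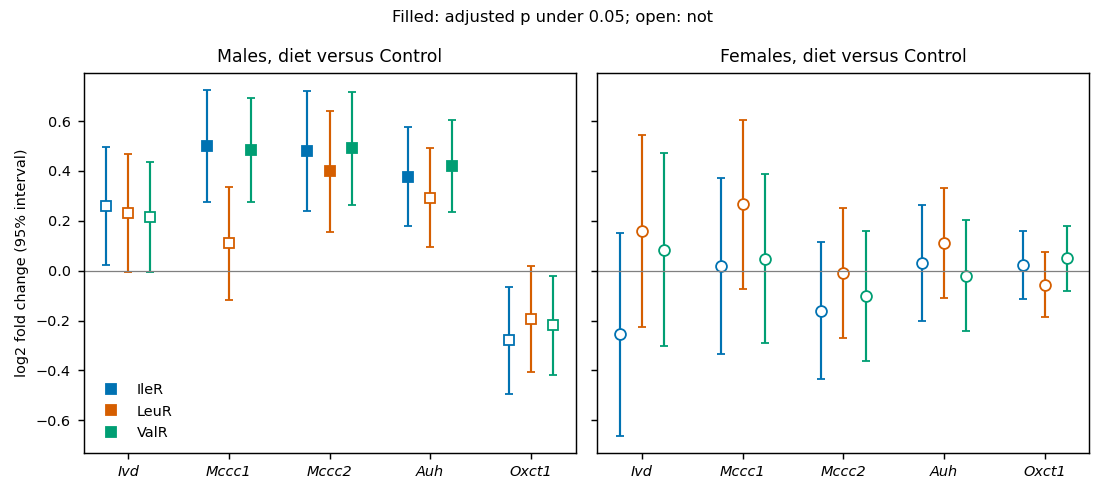
Log2 fold change of each restricted diet against Control with its 95% confidence interval, males left and females right, filled where the adjusted p was under 0.05. In males 7 of 15 values are filled and all 3 Oxct1 values lie below 0, while no female value is filled.

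In females 0 of 5 members passed the test on IleR, LeuR or ValR. Over all 20344 genes tested by edgeR 0% were called, with 577, 820 and 777 genes at an unadjusted p under 0.05. Ivd was 74.9 to 98.3 CPM in Control (median 85.5), 86.8, 31.0, 57.3, 102 and 85.6 CPM on IleR, 81.2 to 116 CPM on LeuR (median 95.8) and 69.4 to 102 CPM on ValR (median 96.8). IleR 39 and IleR 40 held the lowest Ivd levels of all female libraries, and the remaining IleR values fell in or near the Control range. The Ivd log2 fold change was -0.25 (SE 0.20) on IleR, 0.16 (SE 0.19) on LeuR and 0.084 (SE 0.19) on ValR. With 1 library left out they lay between -0.41 and -0.053 on IleR, 0.10 and 0.22 on LeuR, and 0.046 and 0.15 on ValR.

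Female Mccc1 ranged from 23.5 to 43.5 CPM in Control (median 31.5), from 28.2 to 52.6 CPM on LeuR (median 36.0) and from 27.0 to 40.7 CPM on ValR (median 33.8). On IleR it was 29.4, 25.4, 30.0, 45.1 and 35.1 CPM. The spread within each female group was wide, with an SD of 7.19 CPM around a mean of 32.6 CPM in Control, and all groups overlapped. Against Control, the female fold change of Mccc1 on LeuR was log2 0.27 (95% interval -0.072 to 0.60, adjusted p = 0.968), and it ranged from 0.16 (without LeuR 45) to 0.36 (without Control 30) with 1 library left out.

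Female Mccc2 ranged from 14.9 to 22.6 CPM in Control (median 18.6), from 14.0 to 21.1 CPM on LeuR (median 18.3) and from 13.9 to 18.5 CPM on ValR (median 17.4), and was 13.5, 13.0, 15.7, 19.9 and 19.3 CPM on IleR. These ranges overlapped. Its log2 fold changes were -0.16, -0.0094 and -0.10 on IleR, LeuR and ValR, each with an SE of 0.13. With 1 library left out they ranged from -0.24 to -0.082 on IleR, from -0.061 to 0.066 on LeuR and from -0.15 to -0.031 on ValR.

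Female Auh ran from 47.8 to 71.0 CPM in Control (median 52.8), from 51.8 to 73.7 CPM on LeuR (median 55.3) and from 47.5 to 65.0 CPM on ValR (median 54.9), and was 53.0, 50.7, 56.9, 63.2 and 62.7 CPM on IleR. The log2 fold changes were 0.032, 0.11 and -0.019 on IleR, LeuR and ValR (SE 0.11 each), and the LeuR value ranged from 0.046 to 0.19 with 1 library left out. Female Oxct1 ran from 219 to 283 CPM in Control (median 253), from 226 to 261 CPM on LeuR (median 242) and from 245 to 275 CPM on ValR (median 261), and was 264, 269.9, 259, 236 and 249 CPM on IleR. The log2 fold changes of Oxct1 were 0.024, -0.056 and 0.050, with SE of 0.066, 0.063 and 0.063, and with 1 library left out the LeuR value ranged from -0.093 to -0.012 and the ValR value from 0.013 to 0.084. The 95% intervals of the 3 Oxct1 values lay within -0.19 and 0.18, the narrowest of the 5 members.

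Whether the response differed between the sexes was tested as an interaction over all 37 libraries. None of the 15 differences passed the test, where 0.0979%, 0.00445% and 4.25% of all genes were called on IleR, LeuR and ValR. Mccc2 came closest: its log2 change in males minus that in females was 0.57 on ValR (SE 0.17, adjusted p = 0.0539) and 0.63 on IleR (SE 0.18, adjusted p = 0.0854). For Oxct1 the same quantity was -0.29 on ValR (SE 0.099, adjusted p = 0.0746). DESeq2 called Mccc2 and Oxct1 on IleR (adjusted p = 0.0322 and 0.0470) and Mccc2, Auh and Oxct1 on ValR (adjusted p = 0.0183, 0.0478 and 0.0491). In the main fit, passing the test in males and not in females does not show that the sexes differed for any of these genes.

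The LeuR groups were also compared with IleR and ValR, since leucine is the substrate of this branch. In males 0 of 10 values were called, where 0% and 2.75% of all genes were called against IleR and ValR (2512 and 5294 genes at an unadjusted p under 0.05; DESeq2 called 107 and 2547). The count against ValR, 611 genes, was 0 without any of Control 1, 3 or 5, ValR 7, 10 or 12, IleR 14 or LeuR 21, and 1990 without ValR 9. Mccc1 was lower on LeuR by a log2 value of -0.39 against IleR (SE 0.11, adjusted p = 0.356) and -0.38 against ValR (SE 0.11, adjusted p = 0.0625), and its LeuR libraries lay wholly below both groups, as did 9.38% and 9.42% of all genes. DESeq2 called Mccc1 against ValR (adjusted p = 0.0112), and so did the main test without ValR 9 (adjusted p = 0.0309), while without ValR 12 the value was -0.30 (adjusted p = 0.179). The other 4 members had intervals that spanned 0, from -0.34 to 0.31 at their widest. In females 0 of 10 values were called (0% of all genes), and Ivd against IleR was the largest, log2 0.41 (95% interval 0.0062 to 0.82, adjusted p = 0.801). It was 0.22 without IleR 39 and 0.57 without IleR 41.

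Mccc1 and Mccc2 encode the subunits of the same enzyme, so their balance was measured as the log2 ratio of Mccc1 to Mccc2 counts. In males the mean ratio was 1.15 ± 0.16 (SD, n = 4) in Control, 1.17 ± 0.035 (n = 3) on IleR, 0.87 ± 0.26 (n = 3) on LeuR and 1.14 ± 0.19 (n = 4) on ValR. LeuR had the lowest mean among males, with values of 0.95, 1.09 and 0.58 in LeuR 19, 20 and 21, and overlapped Control. Its difference from Control, -0.27, ranged from -0.38 (without LeuR 20) to -0.13 (without LeuR 21) with 1 library left out. In females the mean was 0.82 ± 0.16 (n = 6) in Control, 1.01 ± 0.13 (n = 5) on IleR, 1.10 ± 0.16 (n = 6) on LeuR and 0.98 ± 0.12 (n = 6) on ValR. The female LeuR difference of 0.27 gave p = 0.0130 in the two-sided exact permutation test and an adjusted p = 0.0779 over the 6 comparisons, so no difference passed, and the direction on LeuR was opposite in the sexes, a contrast that was not tested.

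Among libraries of the same diet, the 4 catabolic genes and Oxct1 moved in opposite directions in females. After subtracting the diet means of log2 CPM, Mccc1 and Mccc2 had a Pearson correlation of 0.88 over 23 female libraries and Mccc1 and Auh one of 0.84. The 6 pairs without Oxct1 ranged from 0.55 to 0.88, and the 4 pairs with Oxct1 from -0.68 to -0.51. Over 14 male libraries the 6 pairs ranged from -0.30 to 0.19, and the pairs with Oxct1 from -0.60 to 0.59. These values are descriptions, since libraries share regional content, depth and scaling.

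In females the members also followed the hindbrain score within diet groups. Log2 CPM rose per unit of score by 0.073 for Mccc1 (95% interval 0.053 to 0.093, adjusted p = 2.42e-06), by 0.046 for Auh (0.032 to 0.061, adjusted p = 1.16e-05), by 0.042 for Mccc2 (0.018 to 0.066, adjusted p = 0.00423) and by 0.047 for Ivd (0.0086 to 0.086, adjusted p = 0.0432) in the edgeR fit with diet. Oxct1 fell by 0.020 (interval -0.031 to -0.0080, adjusted p = 0.00653). All 5 members were called, where 45.4% of all genes were. The Ivd call was lost when any of 9 single libraries was left out. In males, whose Control scores did not overlap those of any restricted diet, 0 of 5 members were called (0.77% of all genes). The male slope was 0.050 per unit for Auh (SE 0.016, adjusted p = 0.162; DESeq2 called it, with adjusted p = 0.0376), 0.011 for Ivd, 0.0030 for Mccc1, -0.038 for Mccc2 and 0.0021 for Oxct1, so Mccc2 and Oxct1 had the opposite sign to their female slopes. The mean scores of the restricted males were 9.42 (IleR), 7.00 (LeuR) and 11.0 (ValR) above Control.

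**Figure D3:**
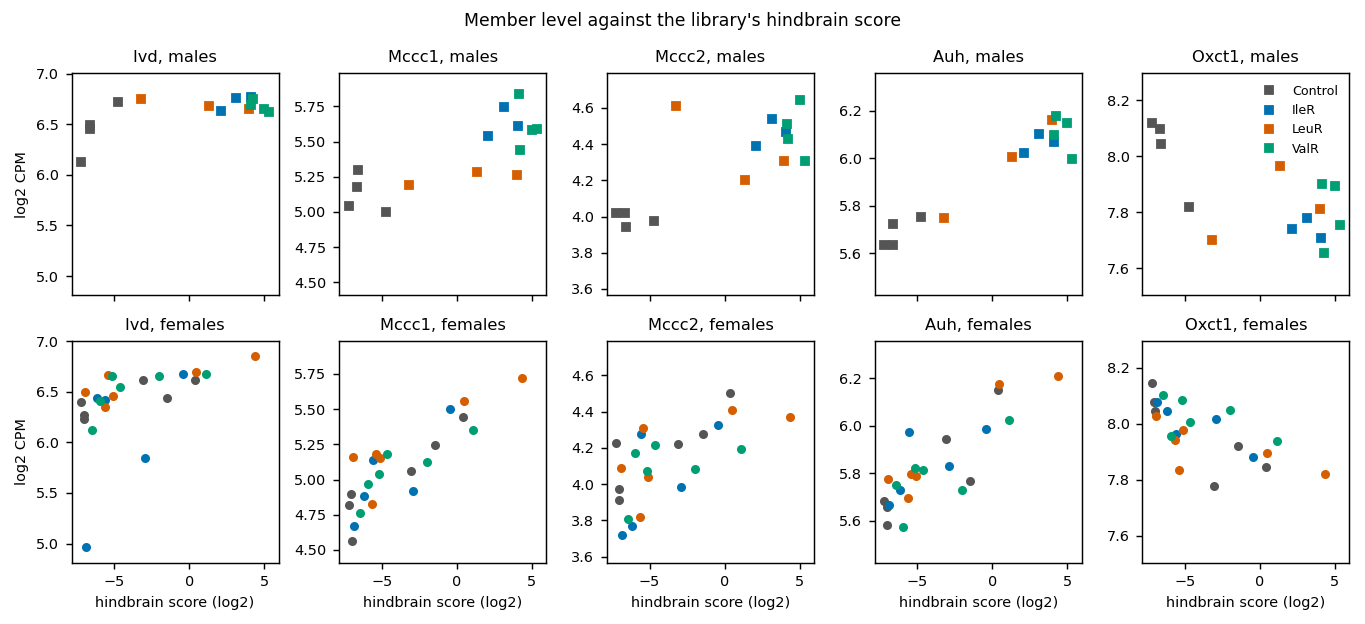
Log2 CPM of the 5 genes against the hindbrain score (log2 units, higher with more cerebellar, brainstem and spinal cord RNA) in each male (top) and female (bottom) library, colored by diet. In females the 4 catabolic genes rise and Oxct1 falls along the score within diets, while the male Control libraries, at -7.22 to -4.74, stand apart from the restricted groups.

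The steps around the branch were described with 5 gene lists. Among 8 genes of the shared BCAA steps in males, 0 rose and 1 fell on IleR, 1 rose and 1 fell on LeuR, and 2 rose and 1 fell on ValR. Of all genes, 6.63%, 3.81% and 11.1% were called higher and 8.68%, 6.33% and 12.4% lower, so 1 gene of 8 is near the share over all genes. The gene that fell each time was Ppm1k, the phosphatase that activates the ketoacid dehydrogenase, by log2 values of -0.55, -0.62 and -0.47 (adjusted p = 0.00176, 0.00359 and 0.00116). Bckdha, a subunit of that dehydrogenase, rose by 0.29 on LeuR (adjusted p = 0.0456) and 0.37 on ValR (adjusted p = 0.00461). The median log2 fold change of this list was 0.11, 0.11 and 0.19 on IleR, LeuR and ValR.

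Carboxylation in the branch needs biotin, and of 8 genes for biotin enzymes and biotin supply 4, 3 and 5 rose on IleR, LeuR and ValR in males and 0 fell, where 6.63%, 3.81% and 11.1% of all genes were called higher. Hlcs, the ligase that attaches biotin to the carboxylases, rose by log2 0.69 on IleR (adjusted p = 0.00852) and 0.80 on ValR (adjusted p = 0.00133). Pcx, pyruvate carboxylase, rose by 0.38 on LeuR (adjusted p = 0.0240). Of 10 electron acceptor and acyl-CoA dehydrogenase genes, the relatives and partners of Ivd, 1, 3 and 4 rose and 0 fell, with Acadvl, the very long chain enzyme, at 0.36, 0.43 and 0.43 (adjusted p = 0.0153, 0.0111 and 0.00218). The valine and isoleucine branches had 6, 4 and 6 of 11 genes higher and 0 lower, among them Hibch, a hydrolase of the valine branch, by 0.53 on IleR and on LeuR (adjusted p = 0.00630 and 0.0125), and Hibadh, the next enzyme, by 0.43 on ValR (adjusted p = 0.00420). The medians of these lists lay between 0.26 and 0.40.

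Ketone body and acetoacetate genes, the surroundings of Oxct1, numbered 12 tested, of which 0 rose and 3 fell on IleR, 0 rose and 1 fell on LeuR, and 3 fell on ValR, where 8.68%, 6.33% and 12.4% of all genes were called lower. Aacs, which activates acetoacetate for lipid synthesis, fell by log2 -0.40 on IleR (adjusted p = 0.0182), and Slc16a7, a monocarboxylate transporter, by -1.23 on LeuR (adjusted p = 0.0177). On ValR Hmgcs1, the cytosolic HMG-CoA synthase of sterol synthesis, fell by -0.62 (adjusted p = 0.00339). In females 0 genes of the 5 lists were called on any diet.

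The list counts moved with the fit. With the hindbrain score as a covariate, 0 genes of the 5 lists were called on any male diet, with 0, 1 and 1 at an unadjusted p under 0.05 on IleR, LeuR and ValR. With 1 library left out, the biotin count ranged from 1 (without Control 1, Control 3, IleR 14 or IleR 17) to 4 on IleR, from 0 (without Control 1, Control 3, LeuR 19 or LeuR 20) to 5 (without Control 4) on LeuR and from 4 to 5 on ValR. The valine and isoleucine count ranged from 1 (without IleR 17) to 8 (without Control 4 or LeuR 21) on IleR, from 0 (without LeuR 19) to 7 (without Control 4 or LeuR 21) on LeuR and from 2 (without Control 1, 3 or 5 or ValR 7) to 6 on ValR. For electron acceptors and acyl-CoA dehydrogenases the count was 0 (without IleR 13 or IleR 17) to 2 (without Control 4 or LeuR 21) on IleR, 0 (without LeuR 19) to 6 (without LeuR 21) on LeuR and 1 (without Control 1, ValR 10 or ValR 12) to 5 on ValR, and 2 of 14 such LeuR fits came within 1.5 times the full count. In both directions together, the shared steps had 1 to 2, 1 to 5 (5 without LeuR 21) and 2 to 4 genes called on IleR, LeuR and ValR, and the ketone body list 0 to 5 on IleR (0 without Control 1, 5 without Control 4), 0 to 3 on LeuR (0 without Control 1 or LeuR 19, 3 without Control 4) and, without Control 1, 1 on ValR.

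**Figure D4:**
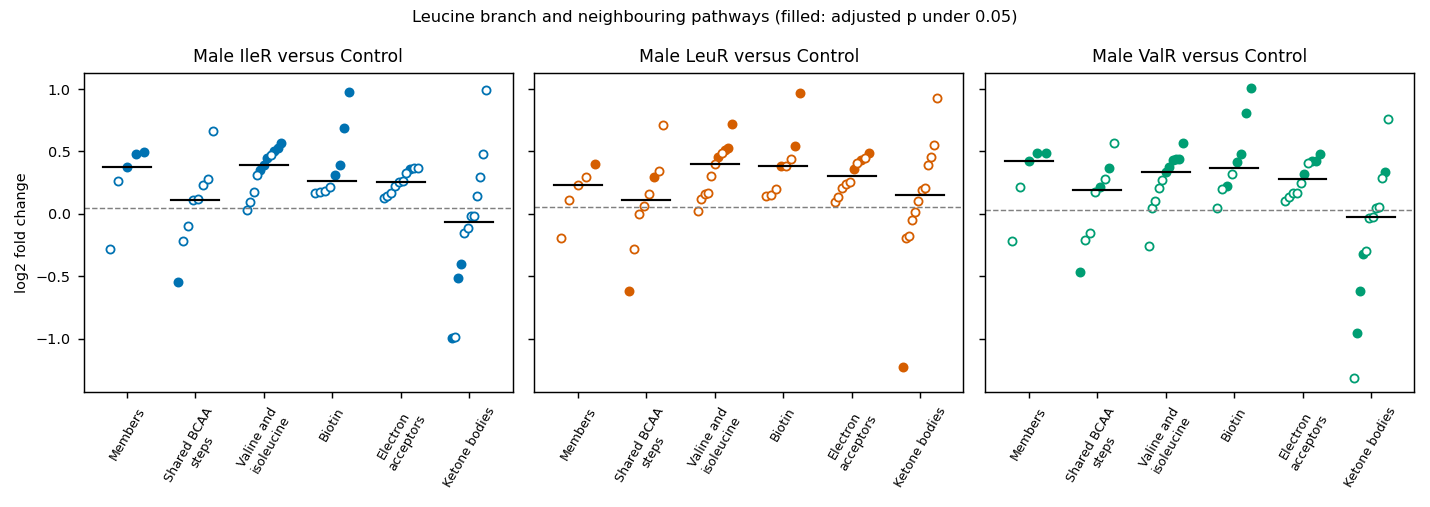
Log2 fold change of each gene of the members and of 5 neighbouring lists in males on each restricted diet (points, filled where the adjusted p was under 0.05), with list medians (black bars) and the median of all genes (dashed line, 0.043, 0.053 and 0.032). The valine and isoleucine, biotin and electron acceptor lists have medians of 0.26 to 0.40, and the ketone body list spreads on both sides of 0.

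The 250 bases before each RefSeq start (GRCm38.p6) are shown for the 3 genes that rose together on IleR and ValR and for Oxct1, which had the opposite sign. Capitals mark the letters CCAAT and, separately, the letters GGGCGG, each searched on both strands, so that the reverse complement is in capitals too.
Mccc1: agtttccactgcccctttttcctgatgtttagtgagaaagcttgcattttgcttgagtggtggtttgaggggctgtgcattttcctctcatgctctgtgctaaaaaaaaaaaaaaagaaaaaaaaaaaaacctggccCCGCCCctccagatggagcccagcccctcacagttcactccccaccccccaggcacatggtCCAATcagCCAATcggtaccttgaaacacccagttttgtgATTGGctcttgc
Mccc2: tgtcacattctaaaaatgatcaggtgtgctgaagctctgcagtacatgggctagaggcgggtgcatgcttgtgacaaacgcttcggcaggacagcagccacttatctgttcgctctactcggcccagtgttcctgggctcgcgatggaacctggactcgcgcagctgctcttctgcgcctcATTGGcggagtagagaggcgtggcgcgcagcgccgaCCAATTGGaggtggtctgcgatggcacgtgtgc
Auh: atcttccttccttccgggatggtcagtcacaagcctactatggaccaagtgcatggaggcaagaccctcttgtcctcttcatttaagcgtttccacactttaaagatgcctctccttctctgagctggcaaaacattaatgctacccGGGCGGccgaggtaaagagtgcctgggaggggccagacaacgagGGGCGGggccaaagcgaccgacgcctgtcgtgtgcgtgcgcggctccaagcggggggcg
Oxct1: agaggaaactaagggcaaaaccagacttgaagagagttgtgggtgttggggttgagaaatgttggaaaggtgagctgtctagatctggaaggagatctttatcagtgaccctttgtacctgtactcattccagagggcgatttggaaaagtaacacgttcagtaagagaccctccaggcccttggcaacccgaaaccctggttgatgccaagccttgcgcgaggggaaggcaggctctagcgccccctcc
These windows are chr3:36000679-36000928, chr13:100015640-100015889 and chr13:52929678-52929927 on the minus strand and chr15:4026178-4026427 on the plus strand.

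CCAAT was present in the windows of both carboxylase subunits, 3 times each, and not in those of Auh and Oxct1. In Mccc2 a pair of these matches, on opposite strands, overlaps in the run CCAATTGG. Ivd, whose window is not printed, held 4 matches, all on the opposite strand, so 3 of 5 members held the motif, as did 33.8% of 32851 promoter windows of the same length. GGGCGG was found 2 times in Auh and 1 time in Mccc1, and in 32.7% of all windows. Searched in the same way, TGACG (17.8% of all windows) was in none of the 5 windows, nor was TATAAA (12.4% of all windows). GC content was 58.8% for Mccc2, 58.4% for Auh, 52.0% for Oxct1, 51.2% for Ivd and 48.4% for Mccc1.

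The genes with the most similar pattern were ranked for each member by the lower of the male (n = 14) and female (n = 23) correlations of log2 CPM after subtracting diet means, over 13642 genes. For Mccc1 these were Rdh10 (0.87), Ammecr1l (0.86) and Gm11611 (0.85), and for Mccc2 Map3k4, Erp29 and Ttc4 (0.79 each). Auh was closest to Gpr137b (0.86), Paqr8 (0.85) and Tsc22d3 (0.85), Ivd to Dnah7b (0.86) and Rbm8a (0.80), and Oxct1 to Sec14l1 (0.86), Smim7 (0.85) and Prrt3 (0.82). No member was among the 3 closest genes of another.

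Ivd varied more than the other members among females, 3.72-fold between the highest and lowest library against 1.29-fold for Oxct1 and 2.24-fold for Mccc1. The difference lay in IleR 39, at 31.0 CPM from 422 counts, and IleR 40, at 57.3 CPM from 869 counts, where the other 21 female libraries held 69.4 to 116 CPM. Genes within 600 kb of Ivd on chromosome 2 were then examined, a window and library chosen after the values were seen. Of 27 such genes, 3 (11.1%) were at least 1 log2 unit below the median of the other female libraries in IleR 39. These were Ivd itself, Bub1b and Knstrn, and 506 of 15316 genes elsewhere were as low. The window and IleR 39 were chosen because of Ivd, so Ivd was certain to be counted. The share therefore cannot test whether genes near Ivd were low more often than genes elsewhere. Bub1b, a spindle checkpoint kinase gene 220.4 kb away, had 3 counts in IleR 39 (0.221 CPM) and 38 in IleR 40 (2.50 CPM), against 2.97 to 10.2 CPM in the other 21. Knstrn, a kinetochore gene 8 kb away, had 6 counts in IleR 39 (0.441 CPM) and 23 in IleR 40 (1.52 CPM), against 1.03 to 3.00 CPM. Shares of 11.1% or more of the nearby genes were also seen in female Control 30, female LeuR 45 and male Control 1, where other genes made them up. Without IleR 39 the female IleR log2 fold change of Ivd was -0.053, with an adjusted p of 0.999973.

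**Figure D5:**
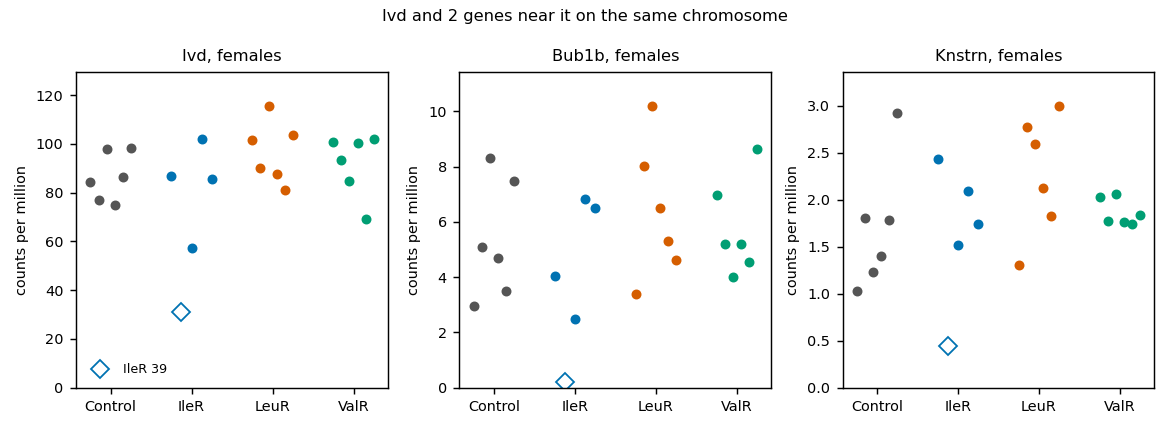
CPM of Ivd, Bub1b and Knstrn in the 23 female libraries by diet (linear axes from 0), with IleR 39 as an open diamond. IleR 39 is the lowest library for each of the 3 genes, at 31.0, 0.221 and 0.441 CPM.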

How the data were processed

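Brain RNA (left hemisphere, per the study's methods) was sequenced from stranded libraries, and the labels and methods differ on polyA or total RNA. The authors aligned reads to GRCm38.p5 and deposited an expected count per Ensembl gene and library without normalization; the aligner is not given in the sources used here. Tables of log2 fold changes and p-values that the authors deposited, from edgeR and limma in R 3.4.3, were not used. Symbols came from GENCODE M21 (GRCm38) and matched 52135 of 55416 identifiers.

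Expected counts were rounded. A gene was tested if some diet group had 1 or more counts of it in each of its libraries. Males and females were fitted apart over 4 diets by edgeR 4.0.16 (R 4.3.3; TMM, quasi-likelihood test, Benjamini-Hochberg adjustment over all genes, threshold 0.05), with fold changes as fitted. Sex differences used all libraries. CPM and log2 CPM (prior count 2) carry TMM scaling, and ratios used an added count of 0.5. Alternatives used DESeq2 1.42.0, limma 3.58.1, other scaling, other filters, other samples, the hindbrain score as covariate, and leaving out each library. Scripts were tested on simulated data. Members by name, list genes by smallest adjusted p in each direction, and similar genes by correlation were named. Some genes that this rule would name are not reported here. Members and lists were chosen with earlier results of these data known, and the score slopes and the Ivd window after the values were seen. The study counts its replicates as mice, and 3 male libraries each on IleR and LeuR are fewer than the male group size it gives. The labels do not tie a library to an animal, so p-values measure the spread between libraries.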

Additional observations from a re-analysis of the deposited data

How the results depend on the processing

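Of 210 male values against Control with a library left out, 194 kept their direction and call, 9 lost the call and 7 gained it. The number of members called ranged from 1 to 5 on IleR (1 without IleR 17, 5 without Control 4). On LeuR it ranged from 0 (without Control 1, Control 3, Control 5, IleR 14 or LeuR 19) to 3 (without Control 4). It ranged from 3 to 5 on ValR (5 without Control 4), and from 0 to 1 for male LeuR against ValR. On male LeuR the count was 2 with DESeq2 and with edgeR's own filter (filterByExpr), and 0 without a filter or with only the groups compared; DESeq2 gave 1 for LeuR against ValR. Between the sexes it was 2 on IleR and 3 on ValR with DESeq2, 1 on ValR with DESeq2 size factors or filterByExpr, and 0 to 1 on IleR and 0 to 2 on ValR with a library left out. The cause of these shifts was not tested.

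With the hindbrain score as covariate, 0 members were called in the male comparisons, and Auh turned to -0.090, -0.064 and -0.12 (log2) on IleR, LeuR and ValR against Control. LeuR minus IleR became 0.00078 for Ivd and 0.025 for Auh, and LeuR minus ValR 0.060 for Auh. The male minus female difference changed sign for some members, to -0.15 for Mccc1 and -0.12 for Auh on IleR and -0.15 for Ivd and -0.077 for Auh on LeuR. On ValR it changed to -0.34 for Ivd, -0.29 for Mccc1 and -0.088 for Auh. For Mccc2 it stayed above 0 in all 6 alternatives, at 0.33 or more on IleR, 0.25 on LeuR and 0.23 on ValR. For Oxct1 it stayed below 0 on each diet.

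Near-zero values changed sign when a library was left out. In males LeuR minus ValR ranged from -0.0075 to 0.041 for Ivd and -0.049 to 0.091 for Oxct1, and LeuR minus IleR from -0.20 to 0.00067 for Mccc2 and -0.18 to 0.030 for Auh. In females against Control, Mccc1 ranged from -0.12 to 0.12 on IleR and -0.030 to 0.15 on ValR, Mccc2 on LeuR from -0.061 to 0.066 (0.0014 with filterByExpr, 0.00083 with only those groups), Oxct1 on IleR from -0.013 to 0.067, and Auh from -0.0056 to 0.11 on IleR and -0.071 to 0.059 on ValR. The Ivd sex difference on LeuR ranged from -0.011 to 0.18. The log2 ratio of Mccc1 to Mccc2 ranged from -0.016 to 0.095 on male IleR, -0.063 to 0.070 on male ValR and 0.22 to 0.32 on female LeuR, which passed the test without LeuR 43 (exact permutation test, adjusted p = 0.0260). Female hindbrain score differences ranged from -1.14 to 0.77 on IleR, -0.29 to 2.12 on LeuR and -0.60 to 1.31 on ValR. Male slopes ranged from -0.0066 to 0.075 for Ivd, -0.020 to 0.013 for Mccc1, -0.056 to 0.016 for Mccc2 and -0.063 to 0.016 for Oxct1.

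No paired analysis was possible because each library carries its own number. Male groups of 3 or 4 libraries limit the precision of each male fold change.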
